A study of Mus musculus with 16 samples.

Results

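The 10 genes described here carry out antigen presentation on MHC class II molecules: H2-AA, H2-AB1, H2-EB1, CD74, CIITA, H2-DMA, H2-DMB1, H2-DMB2, H2-OA and H2-OB. They were chosen by name, as rows of a deposited table of 20992 genes, and all 10 had a row. The table holds RNA levels of the aortic valve in mice of C57BL/6J background, from a series on fibrotic aortic valve stenosis. Control mice (CON, 4 libraries, 1 from a female) carried neither modification. Hypertensive mice (HT, 4 libraries, 2 from females) carried transgenes that overexpress human renin and human angiotensinogen. High cholesterol mice (HC, 4 libraries, 3 from females) were ApoE knockouts, and mice of the high cholesterol/hypertensive model (HC/HT, 3 libraries, 2 from females) combined both. The labels give no age, no diet, no transgene promoter and no word on pooling of valves, and they give each library its own replicate number and sex. Where replicates are not separate mice, the p-values measure only the spread between libraries.

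MHC class II molecules show peptides from endocytosed protein to CD4 T cells. In mice the I-A molecule is a pair of H2-AA and H2-AB1 chains, and H2-EB1 encodes the beta chain of I-E, whose alpha chain gene is defective in C57BL/6 mice. CD74, the invariant chain, blocks the peptide groove until proteases of the endosome remove it. H2-DM, built from an H2-DMA chain and an H2-DMB1 or H2-DMB2 chain, then exchanges the remaining fragment for antigenic peptide, and H2-DO, built from H2-OA and H2-OB and best known from B cells, restrains H2-DM. CIITA is the coactivator that sets transcription of these genes. It binds no DNA itself and acts through RFX, CREB and NF-Y proteins seated on a conserved row of promoter boxes. Dendritic cells, macrophages and B cells are the usual class II positive cells, and macrophages and dendritic cells are known residents of heart valves.

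That promoter row can be read in the RefSeq promoter sequences of build GRCm38.p6, which cover 250 bases before to 50 bases after a gene start. Promoters were at hand for 7 of the 10 genes, all in the class II region of chromosome 17. H2-AB1, CD74 and CIITA had none. The windows shown run from 125 to 26 bases before the start, 5′ to 3′ on the strand of the gene. Capitals mark GATTGG, the core of the Y box bound by NF-Y, and ATGATG, a core of the X2 box bound by CREB. Both strands were searched, and the CCAATC capitals in H2-EB1 are GATTGG on the opposite strand. The 6 windows are shown because they hold at least 1 of the boxes.
H2-AA (chr17:34287849-34287948, minus strand): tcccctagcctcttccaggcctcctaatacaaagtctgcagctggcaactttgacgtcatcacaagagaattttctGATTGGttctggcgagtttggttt
H2-EB1 (chr17:34305742-34305841, plus strand): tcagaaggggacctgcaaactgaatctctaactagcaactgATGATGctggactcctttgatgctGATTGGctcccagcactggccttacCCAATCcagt
H2-DMB1 (chr17:34153066-34153165, plus strand): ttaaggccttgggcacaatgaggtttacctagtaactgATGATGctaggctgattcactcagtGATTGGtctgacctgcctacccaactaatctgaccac
H2-DMB2 (chr17:34145124-34145223, plus strand): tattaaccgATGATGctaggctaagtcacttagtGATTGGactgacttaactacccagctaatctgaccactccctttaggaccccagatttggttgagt
H2-OA (chr17:34092254-34092353, plus strand): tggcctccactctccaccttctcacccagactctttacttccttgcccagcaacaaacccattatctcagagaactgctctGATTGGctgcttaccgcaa
H2-OB (chr17:34238780-34238879, plus strand): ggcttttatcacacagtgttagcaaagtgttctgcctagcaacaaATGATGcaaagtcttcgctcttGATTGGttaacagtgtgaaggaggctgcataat

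GATTGG was present in the promoters of 7 of 7 genes, against 16.1% of all 32851 promoters in the table, which have the same length. In H2-DMA it lay outside the window, 199 bases before the second of 2 annotated starts, and not in the promoter of the first start. ATGATG was present in 4 of 7 genes (H2-EB1, H2-DMB1, H2-DMB2 and H2-OB), against 11.2% of all promoters. Both letters together were present in those 4 genes and in 1.47% of all promoters. From the first base of ATGATG to the first base of GATTGG the distance was 25 bases in H2-DMB1 and in H2-DMB2, 24 in H2-EB1 and 22 in H2-OB. In each of the 4 genes ATGATG came first. These are matches of exact letters in DNA, and other forms of the X2 box were not searched. The H2-AA window, which lacks ATGATG, holds tgacgtca before its GATTGG. A gene without ATGATG is therefore not shown to lack the box. The RNA data do not measure binding.

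Levels are given in units, which are the deposited normalised counts times 1 common factor that sets the median library total to 1000000. A deposited value of 2, the smallest above 0 in 14 of the 15 libraries, is 0.196 units. Levels of different genes are compared only per kilobase of exon. Differences are log2 differences with their standard error (SE), fitted with limma on log2(unit + 1) over all 15 libraries with group and sex as terms. Adding 1 shrinks the fitted difference of a scarce gene below its ratio of means. The threshold was an adjusted p of 0.05 (Benjamini-Hochberg) over the 15004 genes with enough signal to be tested, which included all 10 class II genes; a gene under it is said to have passed.

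The libraries matched the Apoe genotype: APOE stood between 2.15 and 12.3 units in the 7 libraries labelled as knockout and between 56.6 and 1014 in the other 8. The deposited totals are nearly equal (10207928 to 10210305), so sequencing depth is unknown. In each library 4 rows took between 32.4% and 62.7% of the total. Scaling by median-of-ratios factors moved the median of all genes in HT against CON from -0.42 to -0.01, so differences are read beside the median of all genes. Valve tissue markers were present in all libraries, with 10 valve interstitial and fibroblast genes summing to between 4095 and 18096 units and 10 endothelial genes to between 567 and 1256. HT replicate 3 stood apart for leukocyte genes: 10 pan-leukocyte genes summed to 97.9 units there and to between 188 and 1622 in the other libraries. CON replicate 4 stood apart for B cell genes, which are described with H2-OB.

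Class II transcripts ranged over more than an order of magnitude per length, in the same rough order in all 4 groups. Over the 15 libraries the mean level per kilobase was 275 units for CD74, 102 for H2-AA, 81.8 for H2-EB1 and 71.1 for H2-AB1. H2-DMA stood at 8.08 units per kilobase, H2-DMB1 at 6.59 and H2-DMB2 at 1.85. H2-OA (1.25), CIITA (1.20) and H2-OB (0.908) were lowest. Next to their spread over libraries, H2-AA, H2-EB1 and H2-AB1 did not stand apart, nor did H2-DMA and H2-DMB1, nor the lowest 3. H2-EB2, a further class II beta chain row of the table, was at 0 in 7 libraries and reached 1.76 units at most, too low to be tested.

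H2-AA, H2-AB1 and H2-EB1 had their highest group means in HC. In whole valves a difference in the number of class II positive cells and one in class II RNA per cell cannot be told apart. H2-AA stood at 207, 309.5, 274 and 192 units in CON replicates 1 to 4, at 463, 783, 766 and 491 in HC, and at 246, 501 and 626 in HC/HT. Its HT libraries read 604, 133, 19.7 and 176 units. All HC libraries lay above all CON libraries, HC/HT overlapped CON through its replicate 1, and HT ran from the lowest library of the series to a level inside the HC range. The means were 246 ± 55.5 (SD, n = 4) in CON, 233 ± 256 (n = 4) in HT, 626 ± 172 (n = 4) in HC and 458 ± 194 (n = 3) in HC/HT.

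H2-AB1, the partner chain of H2-AA, followed the same library order closely. It averaged 126 ± 12.8 units in CON (n = 4), 108 ± 97.7 (n = 4) in HT, 284 ± 68.4 (n = 4) in HC and 223 ± 51.7 (n = 3) in HC/HT. Here both HC (from 209 to 354) and HC/HT (from 163 to 256) lay above the highest CON library at 138. With median-of-ratios scaling the lowest HC/HT library (145) and the highest CON library (147) of H2-AB1 overlapped. H2-EB1 averaged 103 ± 31.4 in CON (n = 4), 95.5 ± 96.8 (n = 4) in HT, 245 ± 46.5 (n = 4) in HC and 204 ± 82.4 (n = 3) in HC/HT. For H2-EB1, HC lay above CON (199.9 and up against 139 and down), while HC/HT replicate 1 at 116 overlapped CON.

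CD74, the most abundant of the 10 transcripts per kilobase, had a wide spread in the knockout libraries. It read 305, 305, 388 and 469 units in CON, 395, 98.3, 45.8 and 304 in HT, 465, 589, 1066 and 708 in HC, and 224, 409 and 1153 in HC/HT. HC and CON overlapped by a narrow margin, since CON replicate 4 at 469 exceeded HC replicate 1 at 465. HC/HT spanned from below every CON library to the highest level in the series, so its mean of 595 ± 491 (n = 3) describes no typical library.

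**Figure D1:**
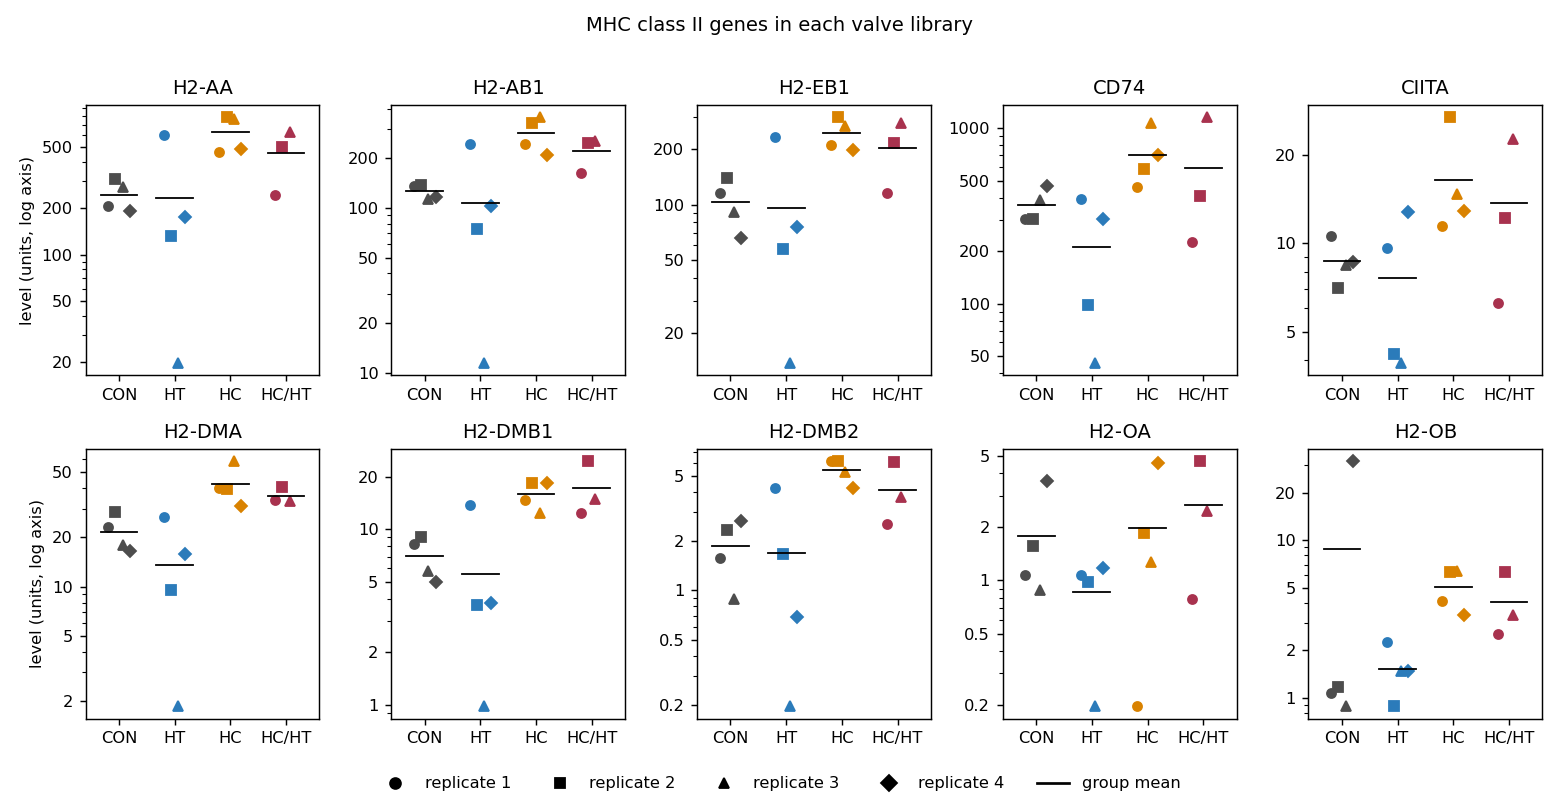
Level of each class II gene in each library, in units on a log axis, by group; marker shapes give the replicate number and the bar is the group mean. HT replicate 3 is the lowest library for 9 of the 10 genes (tied with HC replicate 1 for H2-OA), and CON replicate 4 is the highest for H2-OB at 31.8 units.

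CIITA, the coactivator of the set, was scarce. Its levels were 10.6, 7.05, 8.42 and 8.62 units in CON, 9.60, 4.21, 3.92 and 12.7 in HT, 11.5, 26.7, 14.7 and 12.8 in HC, and 6.27, 12.1 and 22.5 in HC/HT. The lowest HC library exceeded the highest CON library by 11.5 against 10.6, and lay below it (8.66 against 10.8) with median-of-ratios scaling. HC replicate 2, the only HC male, was the highest of all, while HC/HT replicate 1 lay below every CON library.

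H2-DMA, the shared chain of the peptide editor H2-DM, was separated between the genotypes. It read 23.2, 28.8, 17.9 and 16.6 units in CON and 26.6, 9.60, 1.86 and 15.9 in HT. In HC it read 40.3, 39.6, 58.7 and 31.0, and in HC/HT 34.0, 40.5 and 33.6. Every Apoe knockout library exceeded every library with intact Apoe, the closest being HC replicate 4 at 31.0 and CON replicate 2 at 28.8. No other class II gene did so, and in that direction 0.673% of all genes tested had knockout and intact libraries that do not overlap.

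H2-DMB1, a beta chain of H2-DM, read 8.23, 9.11, 5.78 and 5.00 units in CON, 13.8, 3.72, 0.980 and 3.82 in HT, 14.7, 18.5, 12.3 and 18.3 in HC, and 12.3, 24.6 and 15.0 in HC/HT. Both knockout groups lay above CON, and HT replicate 1 at 13.8 alone among the intact libraries reached into the knockout range. H2-DMB2, its near-identical neighbour, averaged 1.86 ± 0.796 in CON (n = 4), 1.69 ± 1.79 (n = 4) in HT, 5.46 ± 0.931 (n = 4) in HC and 4.11 ± 1.80 (n = 3) in HC/HT. The lowest HC library of H2-DMB2 stood at 4.21 and the highest CON library at 2.64. No source used here says how reads shared by these paralogs were counted, so the split between them is uncertain.

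The H2-DO chains were scarce. H2-OA stayed between 0.196 and 4.70 units, with means of 1.79 ± 1.26 in CON (n = 4), 0.857 ± 0.448 (n = 4) in HT, 1.98 ± 1.88 (n = 4) in HC and 2.64 ± 1.97 (n = 3) in HC/HT, and its groups overlapped throughout. H2-OB read 1.08, 1.18, 0.882 and 31.8 units in CON, 2.25, 0.882, 1.47 and 1.47 in HT, 4.11, 6.27, 6.37 and 3.33 in HC, and 2.55, 6.27 and 3.33 in HC/HT. Apart from CON replicate 4, every knockout library of H2-OB lay above every intact one, the closest being HC/HT replicate 1 at 2.55 and HT replicate 1 at 2.25. CON replicate 4 is set aside in that sentence for its own H2-OB level, so the separation is a description only. The share of all genes separated without it is not given. With CON replicate 4 the arithmetic mean was higher in intact valves (5.13 ± 10.8, n = 8) than in knockout valves (4.60 ± 1.65, n = 7), although the fitted log2 difference was positive.

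CON replicate 4 also held B cell transcripts that were scarce elsewhere. The 10 B cell marker genes summed to 224 units there and to between 6.66 and 53.9 in the other 14 libraries. MS4A1 (CD20) stood at 33.8 units against at most 1.37 elsewhere, and CD79A at 39.9 against at most 0.882. None of the 10 markers was at 0 in that library, and between 1 and 6 of them were at 0 in each of the others. T cell markers summed to 42.4 units there and to between 12.3 and 16.8 in the other CON libraries. Of the other 9 class II genes, H2-AA, H2-EB1, H2-DMA and H2-DMB1 had their lowest CON level in this library, and CD74, H2-DMB2 and H2-OA their highest. That order depends on the scaling: with median-of-ratios factors none of the 9 was lowest there among CON, and H2-AA (242 units), H2-AB1 (147) and CIITA (10.8) were highest. The part of the B cell transcripts in the H2-OB level was not tested.

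With hypercholesterolaemia alone, the question of HC against CON, 9 of 10 class II genes were higher in HC by the fitted difference and none passed. The members' median was 0.78, against a median of -0.02 over all genes, of which 47.3% were positive. In this comparison limma called 0.167% of all genes tested. The largest fitted difference was that of H2-DMB2, 0.90 ± 0.44 (SE), and the single negative one that of H2-OA, -0.18 ± 0.49 (SE). H2-AA differed by 0.85 ± 0.74 (SE), H2-EB1 by 0.84 ± 0.58 (SE) and CIITA by 0.83 ± 0.44 (SE), with limma adjusted p-values at 1.00 for all 10 genes, and 0 of the 10 had an unadjusted p under 0.05. By libraries, 7 of the 10 had HC and CON groups that did not overlap, all except CD74, H2-OA and H2-OB, and 2.81% of all genes tested were separated in that direction. With median-of-ratios scaling 6 were separated, CIITA no longer being so. CON held 1 female and HC 3, and sex was a term of the fit: without it none of the 10 passed. With only the CON and HC libraries in the fit the members' median was 1.08, and none passed. Without HC replicate 2, the only HC male, it was 0.37.

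In HT against CON, the comparison for hypertension alone, all 10 fitted differences were negative, with a median of -0.84 beside -0.42 over all genes, of which 13.3% were positive. limma called 0% of all genes tested and none of the 10, and 2 of them, CD74 (-1.37 ± 0.61, SE) and H2-DMA (-1.17 ± 0.45, SE), had an unadjusted p under 0.05, as did 12.8% of all genes. With median-of-ratios scaling the members' median was -0.44, beside -0.01 over all genes, with 9 genes negative and CIITA at 0.13. The median was -0.25 without HT replicate 3 and -1.26 without HT replicate 1. None of the 10 had HT libraries all below CON, where 4.15% of all genes did. The spread inside HT was larger than the difference between the groups: HT replicate 1 exceeded HT replicate 3 by a factor of 30.7 for H2-AA, 21.2 for H2-AB1, 17.2 for H2-EB1, 8.63 for CD74, 14.3 for H2-DMA and 2.45 for CIITA. The pan-leukocyte sum differed in the same order between these libraries, 717 units in replicate 1 and 97.9 in replicate 3, and its part in the class II levels was not tested.

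HC/HT against CON gave 10 positive differences with a median of 0.49, beside -0.20 over all genes, of which 33.2% were positive. None passed, and limma called 0.467% of all genes tested. The median was 0.32 without CON replicate 2, the only CON female. H2-DMB1 differed most, by 0.90 ± 0.47 (SE), and CD74 least, by 0.16 ± 0.68 (SE). H2-AB1, H2-DMA and H2-DMB1 had HC/HT libraries that all lay above CON, as did 2.89% of all genes; with median-of-ratios scaling H2-DMA and H2-DMB1 did. HC and HC/HT share the CON libraries, so these comparisons are not independent of each other.

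The renin and angiotensinogen transgenes on top of the Apoe knockout went with differences smaller than their standard errors. In HC/HT against HC, 2 of 10 fitted differences were positive (H2-DMB1, 0.12 ± 0.45, SE, and H2-OA, 0.38 ± 0.49, SE), with a median of -0.30 beside -0.18 over all genes. limma called 0% of all genes tested, and none of the 10 had an unadjusted p under 0.05. The interaction of the HC and HT models was positive for 9 of 10, all except CIITA (-0.07 ± 0.61, SE), with a median of 0.72 beside 0.23 over all genes, limma calling 0% of all genes and no class II gene with an unadjusted p under 0.05. Without HT replicate 3 that median was 0.07. In hypertensive against normotensive groups all 10 differences were negative, with a median of -0.53 beside -0.30 over all genes, and of -0.24 without HT replicate 3. With median-of-ratios scaling H2-OA was at 0.0086 and the other 9 were negative. None passed, and limma called 0.0133% of all genes.

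Among the hypertensive mice all 10 class II genes were higher with the Apoe knockout by the fitted difference. HC/HT against HT gave 10 positive differences with a median of 1.50, beside 0.21 over all genes, of which 69.5% were positive. None passed (limma called 0.373% of all genes tested), and 6 of the 10 had an unadjusted p under 0.05, as did 8.71% of all genes. The largest were H2-DMB1 (1.69 ± 0.45, SE, adjusted p 0.114 by limma) and H2-DMA (1.66 ± 0.48, SE, adjusted p 0.167 by limma). H2-AA (1.54 ± 0.75, SE), H2-AB1 (1.54 ± 0.66, SE), CD74 (1.53 ± 0.66, SE) and H2-EB1 (1.47 ± 0.59, SE) differed by much the same amount with larger errors. H2-DMA and H2-OB had HC/HT libraries all above HT, as did 4.99% of all genes. Without HT replicate 3 the median was 0.87 and none passed. Without HT replicate 1, 3 of the 10 passed by limma: H2-DMB1 (2.19, adjusted p 0.0062), H2-DMA (2.09, adjusted p 0.014) and H2-EB1 (2.09, adjusted p 0.0184). Leaving out that library also raised the calls over all genes tested, from 56 to 259.

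Taking the 7 knockout libraries against the 8 intact ones, as the mean of HC and HC/HT against the mean of CON and HT, all 10 class II genes had positive differences. Their median was 1.11, beside 0.09 over all genes, of which 61.8% were positive. H2-DMB1 passed, at 1.23 ± 0.33 (SE) with a limma adjusted p of 0.049, and its level was 16.5 ± 4.34 units (SD, n = 7) against 6.31 ± 3.98 (n = 8). It was the only one of the 10, where limma called 1.47% of all genes tested. The adjusted p stands at the threshold: it was 0.0541 with median-of-ratios factors, and 10 of 27 alternatives kept the call. Among those 10 is the looser threshold of 0.1 on the same fit, which H2-DMB1 meets by definition.

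H2-DMA (1.15 ± 0.34, SE, adjusted p 0.116 by limma) and H2-DMB2 (0.94 ± 0.32, SE, adjusted p 0.189 by limma) did not pass. Neither did H2-AA (1.20 ± 0.54, SE), H2-AB1 (1.16 ± 0.47, SE) and H2-EB1 (1.16 ± 0.42, SE). CD74 (1.08 ± 0.47, SE) and CIITA (0.80 ± 0.32, SE) lay near them, and H2-OA was lowest (0.31 ± 0.35, SE). In all, 8 of the 10 had an unadjusted p under 0.05, the exceptions being H2-OA and H2-OB, where 9.84% of all genes had one. Without CON replicate 4, H2-OB had a difference of 1.22 with a limma adjusted p of 0.035 and was then the only class II gene to pass, H2-DMB1 being at 0.0607. Over all genes tested limma then called 184 as higher and 44 as lower. Without HT replicate 1, the passing genes were H2-DMB1, H2-DMA and H2-EB1, and the calls over all genes tested were 418 in place of 220. Without HT replicate 3, H2-DMA passed (0.97, limma adjusted p 0.0477) and H2-DMB1 did not (1.12, limma adjusted p 0.0509).

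**Figure D2:**
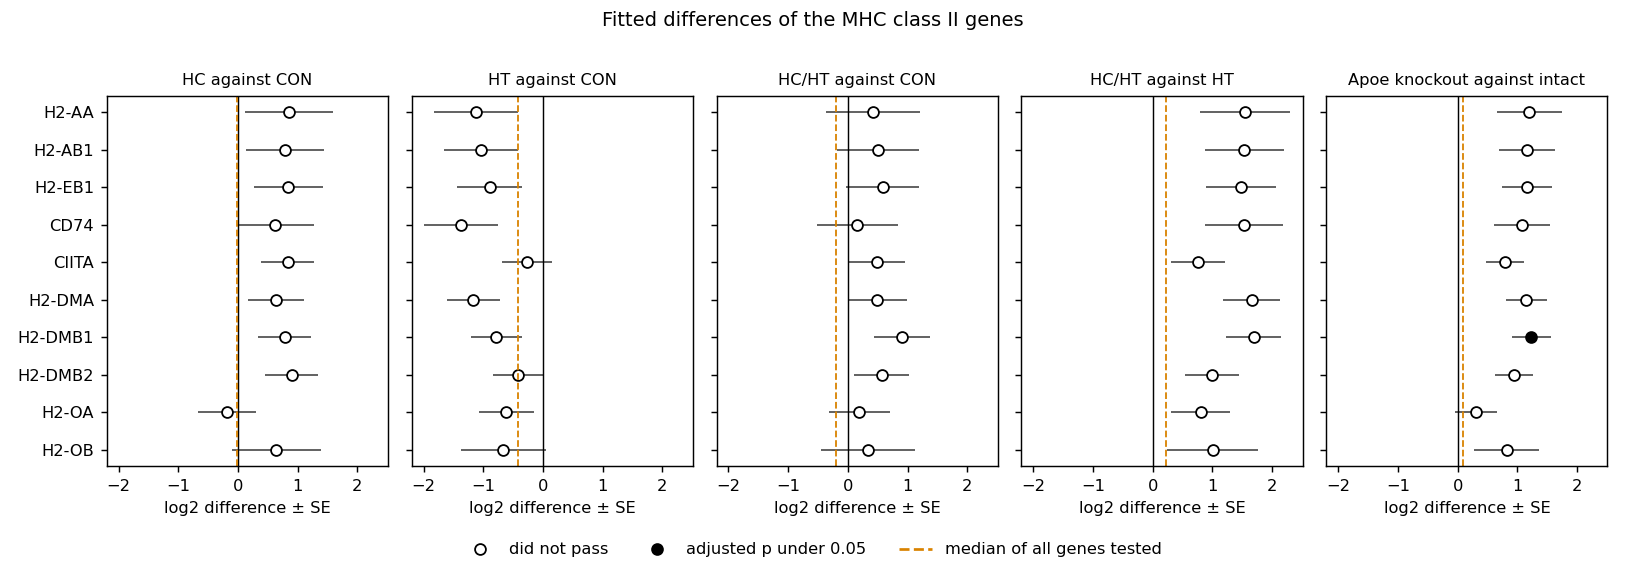
Fitted log2 difference of each class II gene with its standard error in 5 comparisons; the dashed line is the median of all 15004 genes tested and a filled point passed at an adjusted p under 0.05. In the comparison of Apoe knockout with intact all 10 points are positive and H2-DMB1 alone is filled.

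Several enzymes that serve class II loading were higher in the knockout valves. Of 14 genes of class II processing and traffic, 14 were higher in knockout than in intact valves, with a median of 0.95, and 5 passed by limma. Over all genes tested the median was 0.09, 61.8% were positive and limma called 1.47%. CTSS (cathepsin S), the protease known for the last cuts of CD74, was at 312 ± 145 units (SD, n = 7) against 57.5 ± 40.0 (n = 8), a difference of 2.44 ± 0.50 (SE, adjusted p 0.034 by limma). CTSL (1.53 ± 0.27, SE), CTSD (1.65 ± 0.29, SE) and CTSB (1.52 ± 0.29, SE), further endosomal and lysosomal proteases, and IFI30 (1.78 ± 0.39, SE), the reductase that opens disulfides of antigen, also passed. The count of 5 was 3 without CON replicate 2, CON replicate 4, HT replicate 2, HC replicate 2 or HC/HT replicate 2, and 2 without HC/HT replicate 1; without CON replicate 4 the genes left were CTSB, CTSD and CTSL. CST3, a secreted protease inhibitor of the same list, differed by 0.08 ± 0.36 (SE).

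Regulators upstream of class II did not pass in the main fit of knockout against intact valves. Of 12 class II transcription factors 10 were positive with a median of 0.27, and of 17 tested interferon gamma signalling genes 14 were positive with a median of 0.20, beside 0.09 over all genes. IFNG, the inducer of CIITA, was listed at 0 in 13 libraries and at 0.196 units in HC replicates 1 and 3, the value of a deposited 2. IRF1, a transcription factor induced by interferon gamma, differed by 0.27 ± 0.36 (SE). Without HT replicate 1, 1 class II transcription factor and 1 interferon gamma signalling gene passed, and these lists share genes. The calls over all genes tested then rose from 220 to 418. All 7 tested costimulation genes were positive, with a median of 0.79, and none passed. Without HT replicate 1, 2 costimulation genes and 2 class I presentation genes passed. Class I presentation genes were positive in 17 of 18, with a median of 0.39 and none passing; H2-K1 differed by 0.54 ± 0.30 (SE), H2-D1 by 0.73 ± 0.30 (SE) and B2M by 0.31 ± 0.31 (SE).

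Leukocyte markers were higher in the same groups as the class II genes. The 10 pan-leukocyte genes summed to 486 ± 104 units in CON (SD, n = 4), 323 ± 274 (n = 4) in HT, 1189 ± 348 (n = 4) in HC and 909.9 ± 198 (n = 3) in HC/HT. In knockout against intact valves 10 of 10 pan-leukocyte genes were positive, with a median of 1.48, and CD53 (1.58 ± 0.30, SE), ITGB2 (1.70 ± 0.31, SE) and LAPTM5 (1.62 ± 0.31, SE) passed. Over all genes tested 61.8% were positive in this comparison and limma called 1.47%. No pan-leukocyte gene passed with median-of-ratios factors, where the median was 1.36. The count of 3 was 10 without HT replicate 1, 6 without HT replicate 3 and 2 without HT replicate 2. Of 14 macrophage genes 13 were positive, with a median of 1.12, and CD68 (2.04 ± 0.30, SE), LYZ2 (2.13 ± 0.38, SE), C1QB (1.64 ± 0.37, SE) and CD14 (1.50 ± 0.36, SE) passed. That count of 4 was 7 without HT replicate 1 and 2 without CON replicate 2, HT replicate 2, HC replicate 2, HC replicate 3, HC/HT replicate 1 or HC/HT replicate 2. Of 12 dendritic cell genes 10 were positive with a median of 0.76, and of 8 tested T cell genes 8 were positive with a median of 0.88, none passing in either list. Without HT replicate 1, 2 dendritic cell genes passed, and without CON replicate 4, 1 T cell gene did. Of 5 tested B cell genes 3 were positive and CD22 passed (2.23 ± 0.37, SE). Of 6 monocyte genes 5 were positive and CHIL3 passed (1.38 ± 0.36, SE). When the 15 libraries were left out singly, CHIL3 kept its call in 5 cases, without CON replicate 4, HT replicate 1, HT replicate 3, HC replicate 4 or HC/HT replicate 3. With median-of-ratios factors CHIL3 did not pass and ITGAX, of the dendritic cell list, did. The part of these cells in the class II differences was not tested.

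Smooth muscle genes went the other way, 6 of 6 being negative with a median of -2.19 and MYL9 passing (a call kept only without HT replicate 3 or HC replicate 2 when the 15 libraries were left out singly), and their summed level ran from 70.6 to 565 units in knockout and from 119 to 2591 in intact valves. Cardiomyocyte genes were negative in 8 of 8, none passing, with sums from 161 to 1257 units in knockout and from 359 to 11410.1 in intact valves. Endothelial genes had a median of 0.04 and valve interstitial and fibroblast genes one of -0.01. Over all genes tested the median was 0.09, with 61.8% positive.

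**Figure D3:**
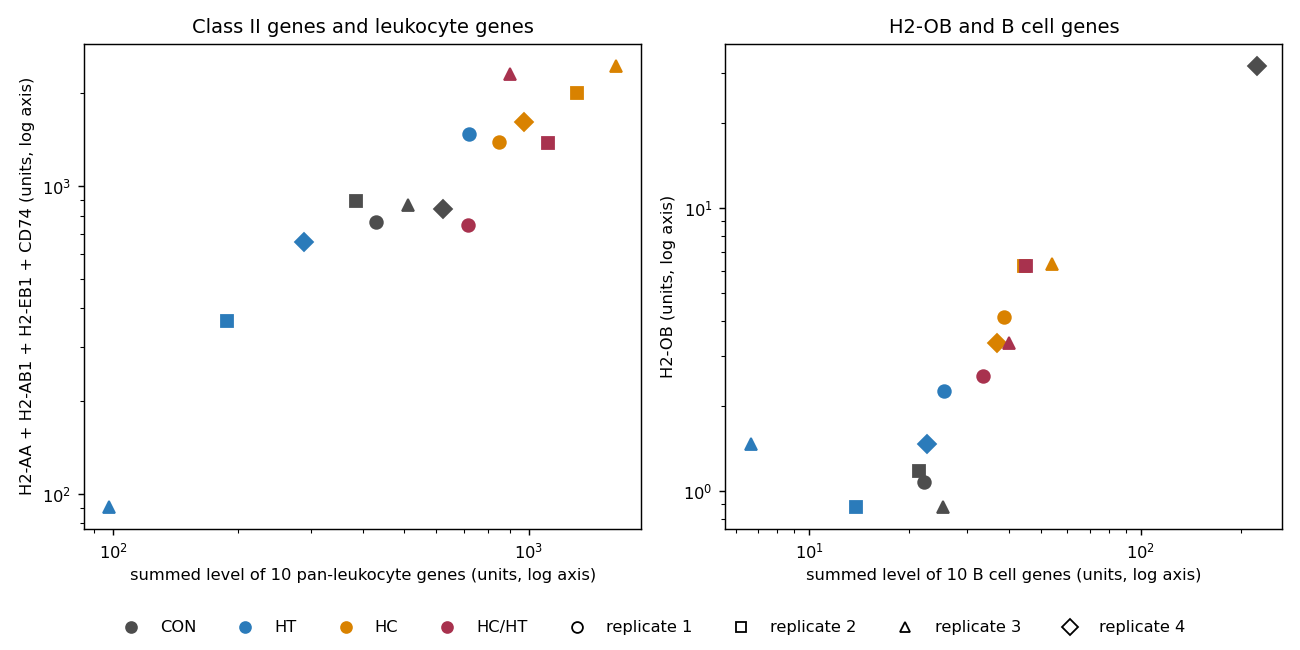
Left, the summed level of H2-AA, H2-AB1, H2-EB1 and CD74 against that of 10 pan-leukocyte genes; right, H2-OB against the sum of 10 B cell genes; 1 point a library, units on log axes. HT replicate 3 is lowest on both axes at left (90.7 and 97.9 units), and CON replicate 4 is highest on both axes at right (31.8 and 224 units).

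Set against the pan-leukocyte sum of the same library, the class II levels overlapped between the genotypes. The sum of H2-AA, H2-AB1, H2-EB1 and CD74 was 1.79 ± 0.40 times the pan-leukocyte sum in CON (SD, n = 4), 1.80 ± 0.60 (n = 4) in HT, 1.58 ± 0.07 (n = 4) in HC and 1.62 ± 0.83 (n = 3) in HC/HT. HC libraries were close to each other, from 1.51 to 1.65, within the CON range of 1.36 to 2.33. HC/HT ran from 1.05 to 2.56 and HT from 0.927, in replicate 3, to 2.28. Against the macrophage sum the ratio was 0.720 ± 0.150 in CON (n = 4), 0.852 ± 0.278 (n = 4) in HT, 0.571 ± 0.030 (n = 4) in HC and 0.647 ± 0.374 (n = 3) in HC/HT, again overlapping. H2-DMB1 was 1.63 ± 0.45% of the pan-leukocyte sum in knockout (n = 7) and 1.56 ± 0.56% in intact valves (n = 8). CTSS, which had itself passed in knockout against intact, differed here: it was 0.222 to 0.364 of the pan-leukocyte sum in the 7 knockout libraries and 0.077 to 0.197 in the 8 intact ones, with no overlap. Of the 5 class II processing genes that passed in knockout against intact, this ratio was computed for CTSS alone. It does not stand for the others, and the share of all genes separated in this way is not given. Such ratios show unequal change only and do not say which side changed, and they were set up after the levels had been seen.

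The ratios among the class II chains overlapped between all groups. H2-AB1 stood at 0.401 to 0.665 of the H2-AA level of the same library, and H2-EB1 at 0.335 to 0.697. CD74 ran from 0.655 of the H2-AA level in HT replicate 1 to 2.43 in CON replicate 4, with means of 1.58 ± 0.61 in CON (SD, n = 4), 1.36 ± 0.81 (n = 4) in HT, 1.15 ± 0.33 (n = 4) in HC and 1.19 ± 0.57 (n = 3) in HC/HT. CIITA relative to H2-AA was highest in HT replicate 3, at 0.199, and between 0.016 and 0.073 in the other libraries.

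**Figure D4:**
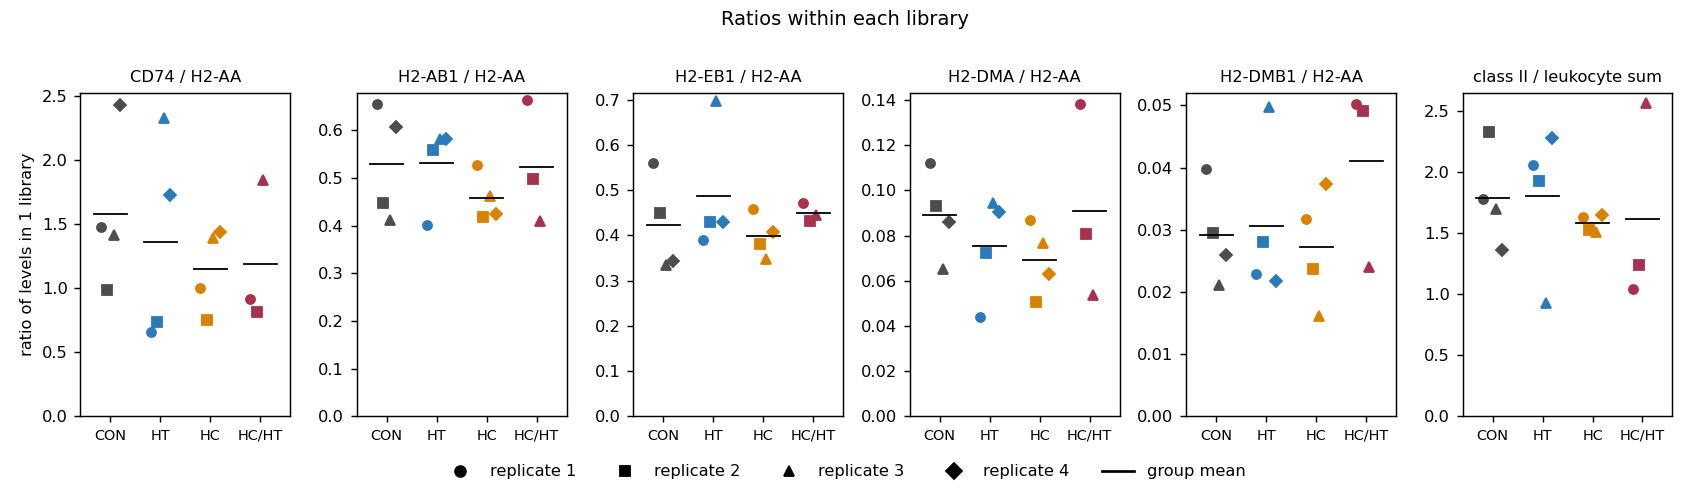
Ratios of levels within each library by group, with the bar at the group mean: CD74, H2-AB1, H2-EB1, H2-DMA and H2-DMB1 over H2-AA, and the 4 class II genes over the 10 pan-leukocyte genes. The groups overlap in every panel, and in the last the HC libraries lie between 1.51 and 1.65.

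Across the 15 libraries most class II genes varied together. Pearson correlations of log2 levels with the mean of the other 9 genes were 0.96 for H2-AB1, 0.95 for H2-AA, 0.94 for H2-EB1, 0.92 for H2-DMA, 0.90 for H2-DMB1, 0.90 for CD74, 0.88 for H2-DMB2 and 0.78 for CIITA. H2-OA (0.51) and H2-OB (0.41) followed least, and H2-OB reached 0.71 without CON replicate 4. Of 12668 other genes with a symbol, those with the highest correlation with the class II profile were FCER1G (0.96), LCP1 (0.96), MYO1F (0.95), PRKCB (0.95), CD180 (0.95), CORO1A (0.95), C1QC (0.95), IKZF1 (0.95), RAP1GAP2 (0.95) and LY86 (0.95), where the median gene had 0.29. FCER1G, LCP1 and CORO1A are pan-leukocyte genes of the marker list and C1QC is a macrophage gene. These correlations describe 15 libraries that share 1 scaling. HT replicates 2 and 3 were the libraries farthest from the median of the profile. Without them the correlations of the genes listed from FCER1G to LY86 were between 0.84 and 0.92. Those among the class II genes were not computed without these libraries.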

How the data were processed

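RNA of mouse aortic valves was read in 15 named libraries of 16 labelled samples. 1 column of values with no name was not used. Per the labels' protocols, cDNA was made from 1 ng of total RNA with the Nugen Ovation RNA-Seq System v2 and libraries with the KAPA hyper prep kit. Build mm10 and the tools Bowtie 1.0.1, SAMtools 0.1.9, FastQC 0.11.2 and edgeR appear in the submitters' processing notes. The counting and scaling steps are not stated in any source at hand. Each deposited value was treated as a score: a normalised count that the authors had rounded. No count model was therefore used, and depth is unknown.

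Values were multiplied by 0.0979537. A gene was kept if 4 or more libraries reached 1 unit. limma 3.58.1 (lmFit, contrasts.fit, eBayes with trend and robust; R 4.3.3) was run on log2(unit + 1) with group and sex, Benjamini-Hochberg over 15004 genes, two-sided, and was tested on simulated data. Alternatives were quantile and median-of-ratios scaling, totals without the 4 most abundant rows, pseudocounts of 0.25 and 4, no filter and a filter at 5 units, no sex term, array weights, plain eBayes, only the groups compared, an adjusted p under 0.1, a replicate block, and each library left out. Exon lengths are from GENCODE vM21. All class II genes are named; of other lists, the 3 most abundant, those that passed, and IFNG and IRF1 could be named, and some list genes are not reported here. The members and lists were chosen with earlier results of these data known.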

Additional observations from a re-analysis of the deposited data

Results flagged for a closer look

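In 7 of 78 sets of 4 libraries (a class II gene or a summed marker list in 1 group) the highest library lay farther from the rest than Dixon's 95% critical value; chance gives about 1 in 20, or 3.9. Groups of 3 were not looked at. Among the class II genes the only one was H2-OB in CON, where replicate 4 stood at 31.83 units. In the same library the sum of other class II rows, which is H2-EB2 alone, was 1.763 units, the B cell sum 224.1 and the T cell sum 42.41. In HT, replicate 4 had a dendritic cell sum of 421.5 units, of which DPP4 made 361. HT replicate 1 had a valve interstitial and fibroblast sum of 13845 units, and HT replicate 2 a cardiomyocyte sum of 11410.1.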

How the results depend on the processing

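The number of class II genes that passed was 0 under every alternative run in HT against CON, HC/HT against CON, HC/HT against HC, the interaction, and hypertensive against normotensive groups. In HC against CON it was 0 except with array weights, where it was 1 (H2-DMB2, 1.23, adjusted p 0.0353 by limma). In HC/HT against HT it was 0, 1 with the replicate block (H2-DMB1), 1 with only the groups compared (H2-DMA), and 0 to 3 when 1 library was left out. In Apoe knockout against intact it was 1, 3 with no sex term and 3 with array weights (H2-DMB1, H2-DMA and H2-DMB2 in both), 0 with median-of-ratios factors, a pseudocount of 0.25, no filter, a filter at 5 units or eBayes without trend and robust, and 0 to 3 when 1 library was left out. H2-DMB1 lost its call there without any one of 12 libraries, all except CON replicate 1, HT replicate 1 and HC/HT replicate 3, with limma adjusted p-values up to 0.309. H2-DMA passed in its place without HT replicate 3, and H2-OB without CON replicate 4. The calls over all genes tested moved too. With 1 library left out they ran from 7 to 259 in HC/HT against HT and from 72 to 418 in knockout against intact. With only the groups compared they were 221 in HC/HT against HT.

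These differences, none of which had passed, changed direction. In HC against CON, H2-OA went from -0.18 (-0.49 to 0.16 with 1 library left out) to 0.037 with only the groups compared, 0.08 without CON replicate 4 and 0.16 without HC replicate 1. In HT against CON, CIITA (-0.60 to 0.036 with 1 library left out) was 0.17 with quantile normalisation, 0.13 with median-of-ratios factors, 0.036 with totals without the 4 most abundant rows and 0.036 without HT replicate 3, and H2-OB (-1.06 to 0.26 with 1 library left out) was 0.055 with array weights and 0.26 without CON replicate 4. In HC/HT against CON, with 1 library left out, CD74 ran from -0.34 (HC/HT replicate 3) to 0.72, H2-OA from -0.13 (HC/HT replicate 2) to 0.72, and H2-OB from -0.10 (CON replicate 2) to 1.21 (CON replicate 4). In HC/HT against HC the members' median ran from -0.43 to 0.054, the latter without HC replicate 2, and H2-DMA was 0.044 with median-of-ratios factors. In hypertensive against normotensive groups H2-OA was 0.0086 with these factors. The cause was not tested.

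The replicate number as a block gave 42 genes in place of 25 in HC against CON, 222 in place of 70 in HC/HT against CON, 138 in place of 56 in HC/HT against HT, 339 in place of 220 in knockout against intact, and 768 in place of 2 in hypertensive against normotensive. It raised the count in each of these. Correlations of the deviations of same-numbered libraries ran from -0.12 to 0.27 (median 0.07 over 21 pairs) and those of other pairs from -0.26 to 0.38 (median -0.07 over 63). Of the 15 libraries 4 were closest to one of their own number. These values do not settle whether libraries of the same number belong together, and the main fit held no block. Array weights called 316, 412, 726, 29, 479 and 2089 genes in HC, HT and HC/HT against CON, HC/HT against HT, knockout against intact, and hypertensive against normotensive. An alternative without HT replicates 1 and 3 together was tried after the data were seen and dropped, since they were picked by their class II levels. Depth is unknown, so levels under 1 unit (H2-OA, H2-OB and H2-DMB2 in some libraries, H2-DMB1 in HT replicate 3) carry an error that cannot be given.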
